A study of Capra hircus with 8 samples.

Results

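The genes described here encode 10 proteins of glucose uptake and glycolysis, not every step of it, in the messenger RNA table of 8-cell goat (Capra hircus) embryos. They are the glucose transporters SLC2A1 and SLC2A3 and the enzymes HK1, HK2, GPI, ALDOA, GAPDH, PGK1, ENO1 and PKM. They were chosen by symbol, with earlier results of these data known, and all 10 were found among the 22107 entries of the table. The series holds 8 libraries, 2 for each of 4 groups: IVF (in vitro fertilisation) and SCNT (somatic cell nuclear transfer), each at the 4-cell and the 8-cell stage, and the messenger RNA values cover the 4 libraries of the 8-cell stage. In SCNT the nucleus of a body cell replaces that of the egg. After direct lysis of the embryos, their polyadenylated RNA was amplified by Smart-seq2, a full-length cDNA protocol for very few cells. The labels give no donor cell type, breed, culture medium or number of embryos per library, and do not say whether replicates were separate pools, so p-values measure only the spread between these samples. Values are FPKM, a level per feature length and per 1000000 fragments of the library.

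Glycolysis splits glucose into pyruvate in the cytosol. Transporters let glucose in, hexokinases trap it as glucose 6-phosphate, GPI turns this into fructose 6-phosphate, and after phosphofructokinase the aldolases cut the sugar into trioses. GAPDH and PGK1 then carry out the oxidation and the ATP-forming step, enolase makes phosphoenolpyruvate, and pyruvate kinase forms pyruvate and ATP. Mammalian cleavage-stage embryos are known to draw mainly on pyruvate and lactate and to use more glucose as they approach the blastocyst stage.

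The transporters SLC2A1 and SLC2A3 and the late enzymes ENO1 and PKM were higher in SCNT embryos, while the differences of HK1, HK2, GPI, ALDOA, GAPDH and PGK1 did not pass the test. Of the 10 genes, 4 passed the test, SLC2A1, SLC2A3, ENO1 and PKM, and each was higher in SCNT embryos (limma on log2(FPKM + 1), two-sided, Benjamini-Hochberg adjustment over 10303 tested genes, threshold 0.05). Among all tested genes, 3.86% passed, 3.02% as higher and 0.844% as lower. Both SCNT libraries lay above both IVF libraries for 9 of the 10, HK1 being the exception, against 46.9% of all tested genes, with 17.1% in the opposite order. All 10 fitted differences were above 0, as were 65.8% of those of all tested genes. Since the 10 were chosen with earlier results known, these shares describe them and do not test the pathway. The median log2 difference was 1.75 over the 10 genes and 0.39 over all tested genes. Without SCNT replicate 1 the median of the 10 was 2.72, and without SCNT replicate 2 it was 1.14. None of the 4 calls remained when SCNT replicate 2 was left out, with a pseudocount of 5 FPKM (adjusted p from 0.0657 to 0.0901) or without the filter on low values (0.242 for each).

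**Figure D1:**
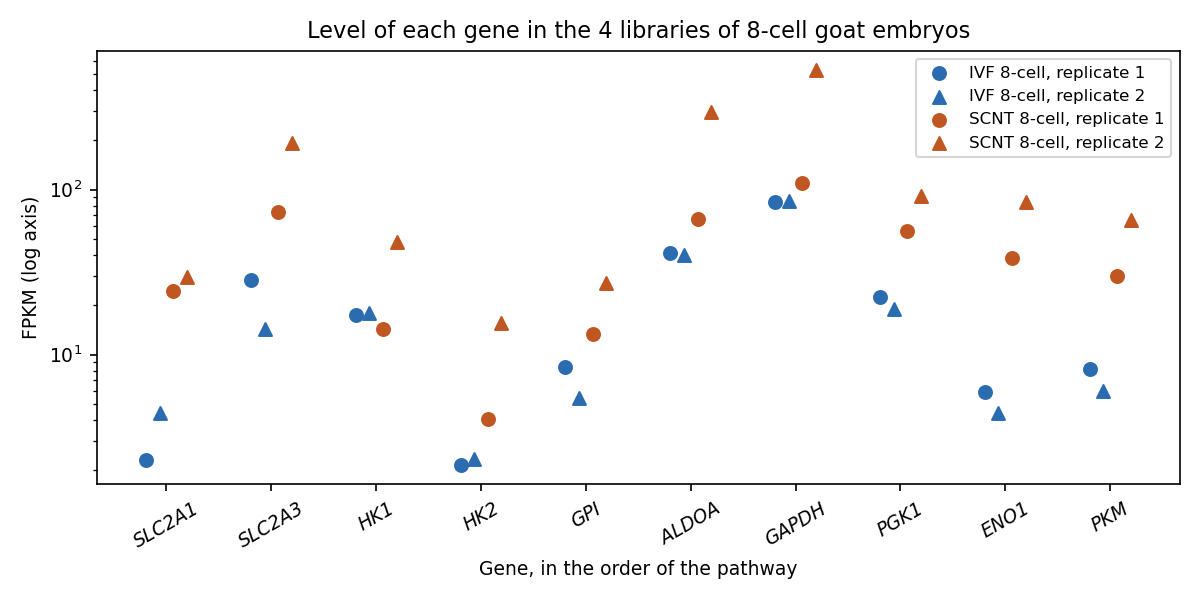
Level of each gene in FPKM (log axis) in the 4 libraries of 8-cell embryos, with 1 point per library, blue for IVF and orange for SCNT, circles for replicate 1 and triangles for replicate 2. The SCNT replicate 2 point is the highest for every gene, from 15.5 FPKM for HK2 to 527 FPKM for GAPDH, and the SCNT replicate 1 point lies above both IVF points for all genes but HK1.

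Glucose entry comes first. SLC2A1 encodes GLUT1, the basal glucose transporter of most cells, and stood at 2.29 and 4.44 FPKM in IVF replicates 1 and 2 against 24.1 and 29.7 FPKM in SCNT replicates 1 and 2. Both SCNT libraries were high and close to each other, and the groups did not overlap. The mean was 8.01-fold higher in SCNT, 26.9 ± 3.95 against 3.36 ± 1.52 FPKM (SD, n = 2), and the log2 difference was 2.72 ± 0.47 (SE; limma adjusted p = 0.0323). The call was lost without IVF replicate 1 (adjusted p = 0.159) and without SCNT replicate 2 (0.0850), with log2 differences of 2.35 and 2.57.

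SLC2A3 encodes GLUT3, a high-affinity transporter. Its level was 28.3 and 14.3 FPKM in the IVF libraries against 73.2 and 193 FPKM in the SCNT libraries. The groups did not overlap, but the replicates of each group lay far apart, with IVF replicate 1 and SCNT replicate 2 as the higher ones. The mean was 6.24-fold higher in SCNT and the log2 difference was 2.50 ± 0.56 (SE; limma adjusted p = 0.0496), just inside the threshold. Without IVF replicate 2 the log2 difference was 2.03 (adjusted p = 0.154) and without SCNT replicate 2 it was 1.81 (0.107). A pseudocount of 0.1 (0.0521) also ended the call, as did median centring (0.0621), quantile normalization (0.0690), a filter at 5 FPKM (0.0652) and a fit without a trend of variance on level (0.0569).

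Hexokinases catalyse the first reaction of glucose inside the cell. HK1, the broadly expressed form, had 17.5 and 17.8 FPKM in IVF against 14.2 and 48.4 FPKM in SCNT. It was the single gene of the 10 whose groups overlapped: SCNT replicate 1 was the lowest of the 4 libraries and SCNT replicate 2 the highest. The log2 difference was 0.56 ± 0.58 (SE; limma adjusted p = 0.541), and it was −0.29 without SCNT replicate 2 and 1.41 without SCNT replicate 1. HK2, the inducible form of muscle, fat and many growing cells, was the lowest of the 10 in every library, with 2.16 and 2.33 FPKM in IVF against 4.07 and 15.5 FPKM in SCNT. Its SCNT mean was 4.37-fold above the IVF mean, mostly through SCNT replicate 2, and the log2 difference, 1.50 ± 0.60 (SE), missed the threshold (limma adjusted p = 0.135).

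In the preparatory steps that follow, GPI, the isomerase, stood at 8.40 and 5.48 FPKM in IVF against 13.4 and 27.1 FPKM in SCNT. Both SCNT values exceeded both IVF values, SCNT replicate 1 by a small margin. Its log2 difference was 1.36 ± 0.50 (SE; limma adjusted p = 0.112). ALDOA, the aldolase of muscle and most other tissues, was at 41.5 and 40.0 FPKM in IVF against 66.4 and 295 FPKM in SCNT. Here the IVF libraries were nearly equal and SCNT replicate 2 stood 4.45-fold above SCNT replicate 1. Its log2 difference was 1.76 ± 0.64 (SE) and missed the threshold (limma adjusted p = 0.110).

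GAPDH opens the pay-off phase and is widely used as a reference gene. It was the most abundant of the 10 in each library, at 84.5 and 85.4 FPKM in IVF against 109 and 527 FPKM in SCNT. The 2 IVF values were almost the same, SCNT replicate 1 was 1.28-fold above their mean and SCNT replicate 2 was 6.20-fold above it. The log2 difference was 1.49 ± 0.66 (SE; limma adjusted p = 0.167). PGK1, the X-linked kinase of the first ATP-forming step, had 22.3 and 18.8 FPKM in IVF against 55.9 and 90.8 FPKM in SCNT. Both SCNT libraries were clearly above both IVF libraries, and the log2 difference of 1.75 ± 0.43 (SE) fell short of the threshold (limma adjusted p = 0.0560). It passed after rescaling each library to the same total (adjusted p = 0.0337).

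ENO1, the ubiquitous enolase, showed the widest separation. It stood at 5.92 and 4.45 FPKM in IVF against 38.5 and 84.1 FPKM in SCNT, 7.42-fold and 16.2-fold above the IVF mean. The lower SCNT library was thus several times the higher IVF library. The log2 difference was 3.24 ± 0.50 (SE; limma adjusted p = 0.0263). It was 2.68 without SCNT replicate 2 (adjusted p = 0.0647) and the call held without each of the other 3 libraries.

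PKM makes pyruvate kinase of embryonic and most adult tissues, in forms M1 and M2 by alternative splicing, which the gene-level values do not separate. It had 8.19 and 6.01 FPKM in IVF against 29.9 and 65.2 FPKM in SCNT. The groups did not overlap, and SCNT replicate 2 was again the higher of its pair. A log2 difference of 2.49 ± 0.50 (SE) passed (limma adjusted p = 0.0425), but not without IVF replicate 1 (0.0746), IVF replicate 2 (0.119) or SCNT replicate 2 (0.0859), nor after quantile normalization (0.0610) or with a filter at 5 FPKM (0.0544).

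**Figure D2:**
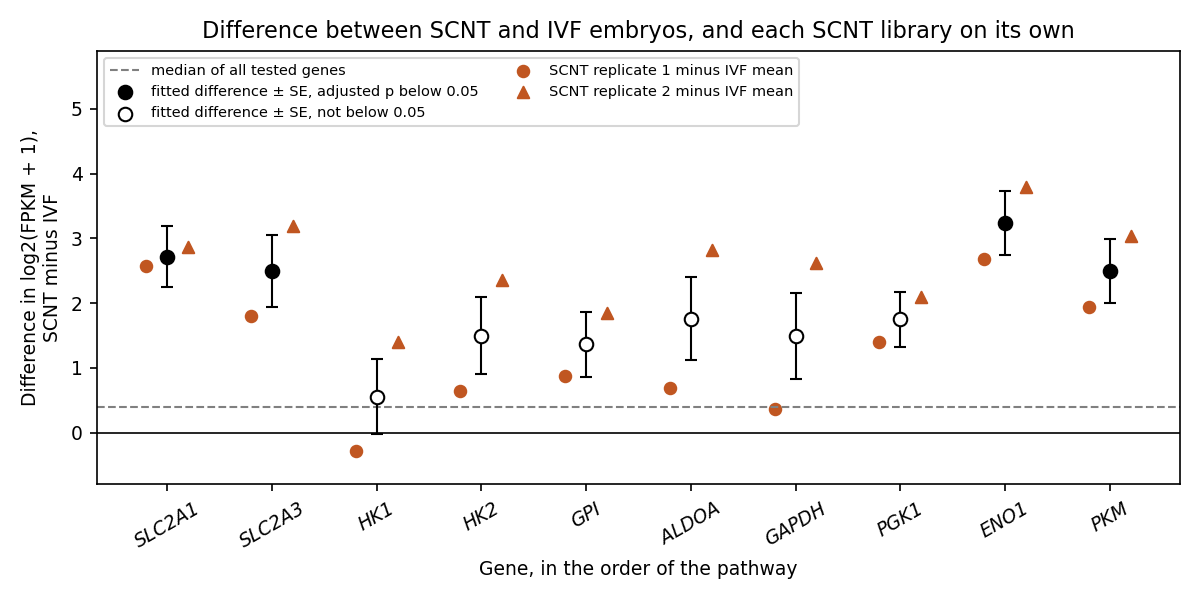
Difference between SCNT and IVF in log2(FPKM + 1) for each gene, with the fitted difference and its SE (black, filled where the adjusted p is below 0.05) and each SCNT library against the IVF mean (orange circle for replicate 1, triangle for replicate 2). SLC2A1, ENO1, PKM and SLC2A3 stand at 1.81 or more in both SCNT libraries, whereas GAPDH is at 0.36 in replicate 1 and 2.62 in replicate 2; the dashed line marks the median of all tested genes, 0.39.

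Each SCNT library was also set against the mean of the IVF libraries. In SCNT replicate 1 the log2 difference was largest for ENO1 (2.68) and SLC2A1 (2.57), followed by PKM (1.94), SLC2A3 (1.81) and PGK1 (1.41). GPI (0.88), ALDOA (0.69), HK2 (0.65) and GAPDH (0.36) were closer to the median of all tested genes in that library, 0.33, and HK1 (−0.29) was below it. In SCNT replicate 2 all 10 genes exceeded the IVF mean, from 1.41 for HK1 to 3.79 for ENO1, while the median of all tested genes was 0.51. Within SCNT replicate 1 the 10 genes thus ranged from below the IVF mean to far above it.

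The 2 SCNT libraries lay far apart in most of these genes. SCNT replicate 2 exceeded replicate 1 for 10 of 10 genes, against 60.7% of all tested genes, and the median gap was 1.25 on the log2 scale. Over all tested genes the median absolute gap was 0.63, and the median with its sign was 0.25. With the sign kept, the values of GAPDH (2.26) and ALDOA (2.14) were above those of 99.3% and 99.0% of tested genes. HK2 (1.71) and HK1 (1.70) followed, then SLC2A3 (1.39), ENO1 (1.11), PKM (1.10), GPI (0.97) and PGK1 (0.69). SLC2A1 (0.29) was near the median. Between the IVF replicates the median absolute gap of the 10 genes was 0.29, and 0.30 over all tested genes. The largest IVF gaps were those of SLC2A3 (−0.93, replicate 2 lower) and SLC2A1 (0.73, replicate 2 higher), so the transporter genes moved in opposite directions between the IVF libraries. The replicate gaps of both groups entered the standard errors, which ran from 0.43 for PGK1 to 0.66 for GAPDH.

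**Figure D3:**
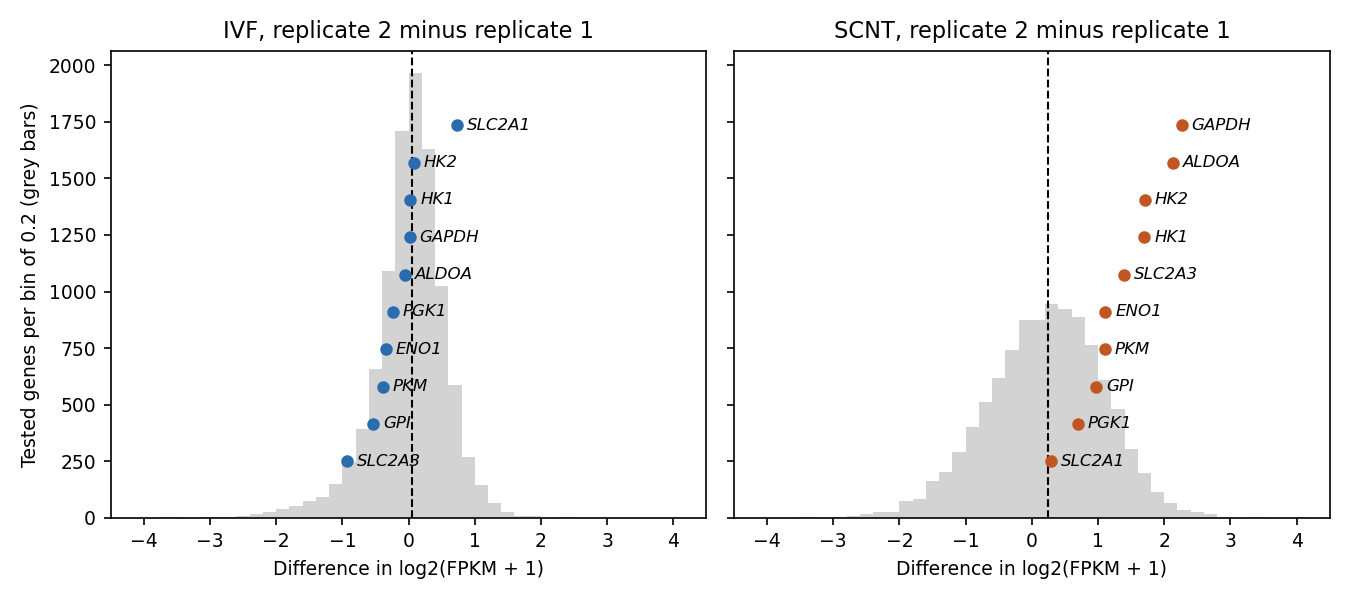
Replicate 2 minus replicate 1 in log2(FPKM + 1) within IVF (left) and SCNT (right); grey bars count the tested genes per bin, the dashed line is their median, and each labelled point is 1 of the 10 genes, spread vertically for legibility. In SCNT the points run from 0.29 (SLC2A1) to 2.26 (GAPDH), all on the side of replicate 2, whereas in IVF they lie on both sides of 0, from −0.93 to 0.73.

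Ranks within a library do not depend on how libraries are scaled to each other, but they do depend on the other genes. In IVF 8984 and 9038 entries reached 1 FPKM, against 9883 and 11025 in SCNT replicates 1 and 2. SLC2A1 stood at percentiles 31.4 and 45.0 of the tested genes in IVF and at 74.3 and 76.2 in SCNT. ENO1 went from percentiles 50.9 and 45.0 to 81.6 and 90.8, and PKM from 57.4 and 51.0 to 77.7 and 87.9. For these 3 genes both SCNT ranks were far above both IVF ranks. GAPDH was already at percentiles 91.6 and 91.9 in IVF and reached 93.5 and 99.2 in SCNT, and HK1 was at 71.8 and 72.1 and at 63.8 and 84.2. The summed FPKM of the 10 genes was 221 and 199 in IVF and 429 and 1375 in SCNT, or 0.0532% and 0.0510%, and 0.113% and 0.322%, of the summed FPKM of the table. SCNT replicate 2 held by far the largest sum. GAPDH and ALDOA supplied 57.0% and 63.0% of the sum in IVF and 40.9% and 59.7% in SCNT, the lowest part being in SCNT replicate 1.

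The order of the levels was GAPDH, ALDOA, then SLC2A3, PGK1 and HK1 in changing order in IVF, with SLC2A1 in place 9 and HK2 in place 10 in both libraries. In SCNT the order became GAPDH, then ALDOA and SLC2A3, then PGK1, ENO1 and PKM in places 4, 5 and 6 of both libraries, and HK2 stayed last. Neighbours in the IVF order such as PGK1 and SLC2A3 (20.5 ± 2.49 and 21.3 ± 9.85 FPKM; SD, n = 2) or PKM and GPI (7.10 ± 1.54 and 6.94 ± 2.06 FPKM) did not differ beyond their spread, and nor did ALDOA and SLC2A3 in SCNT (181 ± 162 and 133 ± 84.5 FPKM). HK1 moved down, from place 5 or 4 in IVF to place 8 or 7 in SCNT, and ENO1 moved up from place 8 to place 5.

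These levels rest on many reads. The steps between low FPKM values of short genes returned totals of 27.5 and 30.3 M reads (M, 1000000) for the IVF libraries and 28.4 and 28.5 M for the SCNT libraries, and with them each of the 10 genes gave whole numbers in all 4 libraries, to within 0.02 read. The smallest number was 205 reads, for HK2 in IVF replicate 1, and the largest 19611 reads, for GAPDH in SCNT replicate 2. ENO1 had 306 and 254 reads in IVF and 2054 and 4511 reads in SCNT. No sample was near the level of a few reads, although duplicates made by PCR were counted like independent molecules. The same step gave the smallest feature lengths that return whole reads, 6514 bases for SLC2A1 and 1485 bases for SLC2A3. SLC2A1 had fewer FPKM than SLC2A3 in SCNT replicate 1 (24.1 against 73.2) but more reads (4465 against 3086), so their relative level depends on the length assigned to each gene.

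Shares of isoenzymes within a library are also free of the scaling between libraries. They are given as descriptions, since 2 against 2 libraries cannot go below p = 0.33 in an exact permutation test. Among HK1, HK2 and HKDC1, HK2 supplied 9.40% and 10.2% of the summed FPKM in IVF against 18.7% and 22.1% in SCNT, and HK1 76.3% and 77.7% in IVF against 65.4% and 68.8% in SCNT. The hexokinase mixture thus held relatively more HK2 in both SCNT libraries, including replicate 1, in which HK1 was below its IVF level. HKDC1, a hexokinase domain gene, supplied 14.3% and 12.1% in IVF against 15.9% and 9.09% in SCNT, and these shares overlapped between the groups.

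Among the enolases, ENO1 supplied 59.2% and 45.4% in IVF against 93.5% and 94.1% in SCNT. Most of the remainder was ENO4, an enolase of the sperm tail, with 4.01 and 5.36 FPKM in IVF against 2.53 and 4.57 FPKM in SCNT (limma adjusted p = 0.644). In IVF embryos ENO1 and ENO4 were thus at similar levels. Nearly all pyruvate kinase came from PKM, 99.8% or more of PKM plus PKLR in every library. SLC2A3 and SLC2A1 shared most of the FPKM of 11 SLC2A genes: SLC2A3 87.4% and 71.3% in IVF against 73.3% and 84.8% in SCNT, SLC2A1 7.08% and 22.1% in IVF against 24.2% and 13.1% in SCNT. Those 2 shares overlapped between the groups.

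**Figure D4:**
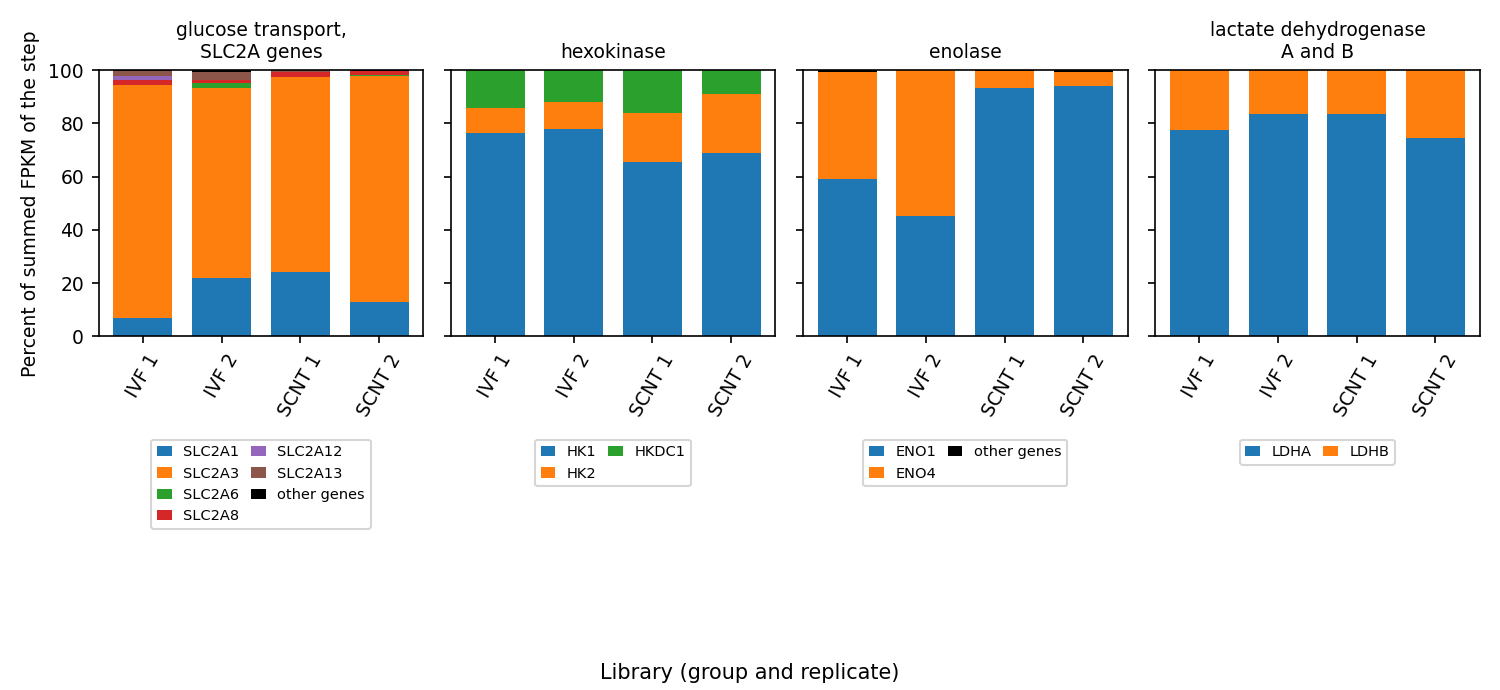
Share of the summed FPKM of each step supplied by each gene, in percent, in the 4 libraries (group and replicate below each bar). ENO1 (blue in the enolase panel) supplies 45.4% to 59.2% in IVF against 93.5% to 94.1% in SCNT, HK2 (orange in the hexokinase panel) 9.40% to 10.2% and 18.7% to 22.1%, and the shares of lactate dehydrogenase A overlap between the groups.

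Other genes of glucose metabolism were read from 4 lists. None of their 61 tested genes passed in limma, with 18 higher and 1 lower at an unadjusted p under 0.05, against 2620 and 580 of the 10303 tested genes. Of 32 other glycolysis genes, 29 were in the table, 18 of these were below the filter of 1 FPKM in 2 libraries and 11 were tested, with a median log2 difference of 0.87 and a range from −0.39 to 1.37. Phosphofructokinase is the main control point between GPI and aldolase. Of its matched genes PFKM had the highest mean level, at 0.0707 and 0.214 FPKM in IVF against 0.262 and 0.920 FPKM in SCNT, below the filter. PFKP, another gene of this step, was at 0 in both IVF libraries and at 0.282 and 0.334 FPKM in SCNT. The triosephosphate isomerase gene TPI1 was at 0.925 and 1.11 FPKM in IVF against 0.685 and 3.41 FPKM in SCNT (limma adjusted p = 0.573). PFKM, PFKP and TPI1 were low beside their neighbours in the pathway, ALDOA and GAPDH. No entry was matched to PFKL, also a phosphofructokinase gene, by symbol or synonym, so the level of that whole step is not known. PGAM1, the mutase before enolase, had 7.63 and 6.73 FPKM in IVF against 9.60 and 21.6 FPKM in SCNT (limma adjusted p = 0.244). BPGM, which makes 2,3-bisphosphoglycerate and was picked out after its values were seen, was more abundant than PGAM1, with 84.8 and 76.7 FPKM in IVF against 115 and 191 FPKM in SCNT (0.191).

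Of 28 genes of the fate of pyruvate, 24 were in the table and 16 tested, with a median log2 difference of 0.23. Set against the IVF mean, the median of these genes was −0.04 in SCNT replicate 1, where that of all tested genes was 0.33, and 0.55 in SCNT replicate 2, where that of all tested genes was 0.51. LDHA, which interconverts pyruvate and lactate, exceeded every one of the 10 genes in each library, at 865 and 967 FPKM in IVF against 691 and 1005 FPKM in SCNT, and the groups overlapped (log2 difference −0.13 ± 0.40 SE, limma adjusted p = 0.845). Its partner LDHB was at 251 and 193 FPKM in IVF against 137 and 340 FPKM in SCNT (0.982). The share of LDHA in the sum of both was 77.5% and 83.4% in IVF against 83.4% and 74.7% in SCNT. SLC16A1, the monocarboxylate transporter with the highest level, had 5.33 and 3.49 FPKM in IVF against 12.0 and 6.39 FPKM in SCNT (0.256), and there SCNT replicate 1 was the higher of the pair. PDHA1, a subunit of the pyruvate dehydrogenase enzyme, was picked out after its values were seen: 11.9 and 11.4 FPKM in IVF against 24.5 and 51.8 FPKM in SCNT (0.0814). PDK1, a kinase that inhibits that enzyme, was picked in the same way: 32.9 and 34.6 FPKM in IVF against 22.1 and 12.1 FPKM in SCNT (0.169). Related genes of the list, picked likewise, did not share a direction. PDK2 was at 0.694 and 0.672 FPKM in IVF against 1.65 and 5.74 FPKM in SCNT (0.114). PDK3 overlapped between the groups (0.987). PDP1 had 35.2 and 35.2 FPKM in IVF against 33.5 and 16.0 FPKM in SCNT (0.426). PDP2 had 51.9 and 17.6 FPKM in IVF against 76.7 and 143 FPKM in SCNT (0.0888).

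In the list of side branches and of the opposite direction, 30 of 32 genes were in the table and 13 were tested, with a median log2 difference of 0.84. The lowest adjusted p of the list was 0.0585. Among genes picked out after their values were seen, TIGAR, a fructose bisphosphatase that opposes glycolysis, had 36.2 and 59.4 FPKM in IVF against 142 and 130 FPKM in SCNT (limma adjusted p = 0.0650), and AKR1B1, the aldose reductase, 306 and 410 FPKM in IVF against 701 and 1183 FPKM in SCNT (0.0817). Of 26 genes that control the pathway, 25 were in the table and 21 tested, with a median of 0.95 and a range from −1.44 to 1.69. HIF1A, the oxygen-regulated factor known to act on several of the 10 genes, was picked likewise. It had 322 and 321 FPKM in IVF against 230 and 120 FPKM in SCNT. Its log2 difference was −0.95 ± 0.43 (SE; limma adjusted p = 0.175). EPAS1 and ARNT of the same list, picked in the same way, were higher in SCNT. EPAS1 had 18.1 and 25.6 FPKM in IVF against 35.7 and 71.1 FPKM in SCNT (limma adjusted p = 0.133). ARNT had 0.392 and 1.12 FPKM in IVF against 3.32 and 6.08 FPKM in SCNT (0.0635). The part of these control genes in the levels of the 10 genes was not tested.

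**Figure D5:**
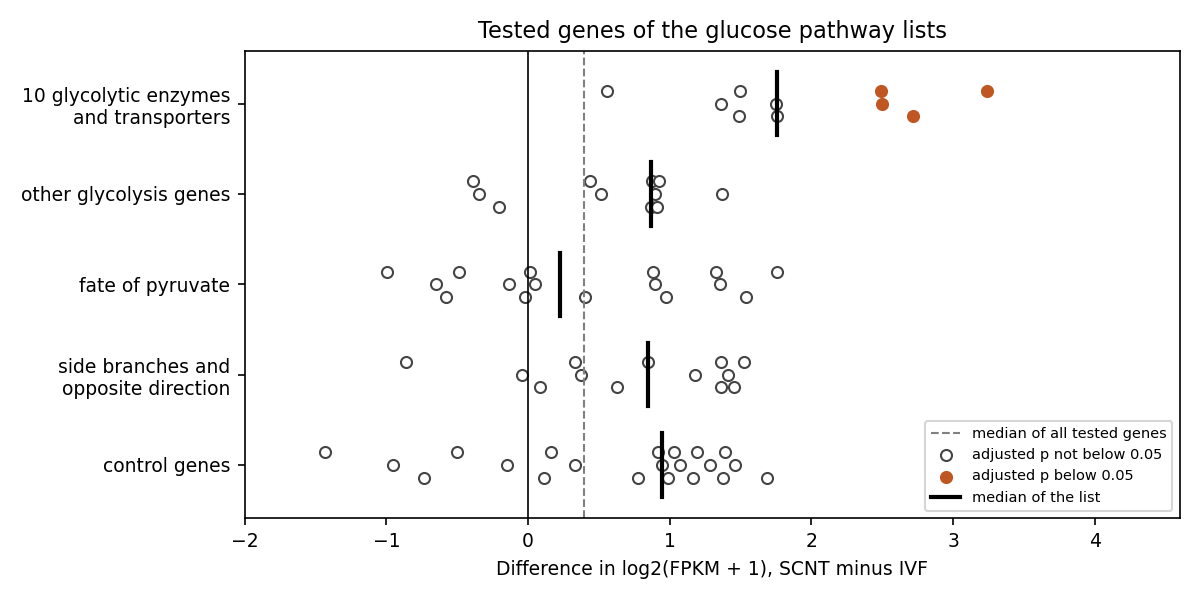
Log2 difference between SCNT and IVF for each tested gene of the 10 and of the 4 other lists, 1 point per gene, filled where the adjusted p is below 0.05, with the median of each list as a black bar and the median of all tested genes (0.39) as a dashed line. The medians are 1.75 for the 10 genes, 0.87 for other glycolysis genes, 0.23 for the fate of pyruvate, 0.84 for side branches and 0.95 for control genes, and the 4 filled points are all among the 10.

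The genes whose pattern over the 4 libraries was nearest to the median profile of the 10 were looked up among 5454 protein-coding genes with a symbol and a mean of 5 FPKM or more. Likeness was the Euclidean distance between centred log2(FPKM + 1) values, which had a median of 1.94 over these genes. EIF4A3 (0.163), NDUFB7 (0.184), TIMMDC1 (0.207), FDPS (0.213) and FDX1L (0.215) were among the 6 nearest. EIF4A3, the nearest, had 24.7 and 23.0 FPKM in IVF against 61.7 and 135 FPKM in SCNT. Within the 10, PGK1 (0.485) and HK2 (0.524) were nearest to the median profile and HK1 (1.39), ENO1 (1.34) and SLC2A1 (1.27) farthest. With 4 libraries such a likeness is a description only.

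Embryo identity and other cell types were checked with marker lists. All 13 oocyte and early embryo markers found in the table were tested, and 3 of them rose in SCNT (KHDC3L, ZAR1L and ASTL), against 3.02% of all tested genes. The median log2 difference of the 13 was 1.57, beside 1.75 for the 10 glucose genes. Both SCNT libraries lay above both IVF libraries for 10 of the 13 and below them for 2. Over all tested genes this held for 46.9% and 17.1%. The summed FPKM of the 13 markers was 7763 and 8952 in IVF and 7222 and 10158 in SCNT. BTG4, the most abundant of them, made up most of that sum, with 5070 and 6040 FPKM in IVF against 3330 and 4246 FPKM in SCNT, and the other 12 summed to 2692 and 2912 FPKM in IVF against 3891 and 5912 FPKM in SCNT.

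Of 15 fibroblast markers, 9 were tested and 2 rose, TIMP1 and TAGLN, against 3.02% of all tested genes. TIMP1 was at 0.156 and 0.637 FPKM in IVF against 11.2 and 12.9 FPKM in SCNT. TAGLN was at 0.659 and 0.389 FPKM in IVF against 4.85 and 4.94 FPKM in SCNT. Both, like COL3A1, reached the filter of 1 FPKM only in the SCNT libraries. Counts and medians of the tested markers therefore lean towards genes high in SCNT. The median log2 difference of the 9 was 0.94. Both SCNT libraries lay above both IVF libraries for 5 of the 9 and below them for 2. Over all tested genes this held for 46.9% and 17.1%. The sum of the 15 markers was 126 and 115 FPKM in IVF against 93.5 and 93.1 FPKM in SCNT. Most of it in IVF was DCN, with 94.3 and 85.5 FPKM in IVF against 33.9 and 39.5 FPKM in SCNT (limma adjusted p = 0.0776). Without DCN the other 14 markers summed to 32.2 and 29.7 FPKM in IVF against 59.7 and 53.6 FPKM in SCNT. The collagen gene COL3A1 was at 0.185 and 0.126 FPKM in IVF against 2.41 and 1.63 FPKM in SCNT (0.0550), and VIM, which encodes vimentin, at 2.15 and 4.09 FPKM in IVF against 11.4 and 6.25 FPKM in SCNT (0.138). COL1A1, below the filter, was at 0.227 and 0.505 FPKM in IVF against 0.730 and 0.993 FPKM in SCNT. Other markers were lower or level in SCNT. FAP was at 4.93 and 5.79 FPKM in IVF against 2.06 and 3.46 FPKM in SCNT. PDGFRA was at 4.34 and 2.56 FPKM in IVF against 2.85 and 2.25 FPKM in SCNT. LUM was at 16.1 and 13.0 FPKM in IVF against 16.5 and 14.2 FPKM in SCNT. BTG4, DCN, COL3A1, VIM, COL1A1, FAP, PDGFRA and LUM were picked out after their values were seen.

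Of 10 cumulus and granulosa markers in the table, 5 were tested and none passed, against 3.86% of all tested genes. FSHR, INHA and AMH were at 0 in all 4 libraries. The sum was 87.9 and 91.9 FPKM in IVF against 64.2 and 97.1 FPKM in SCNT, mostly from STAR, HAS2 and TNFAIP6. STAR had 42.4 and 38.8 FPKM in IVF against 39.5 and 58.0 FPKM in SCNT. HAS2 had 20.6 and 29.4 FPKM in IVF against 17.9 and 18.1 FPKM in SCNT. TNFAIP6 had 19.5 and 19.8 FPKM in IVF against 1.77 and 14.3 FPKM in SCNT (limma adjusted p = 0.164). All of these were picked out after their values were seen. Of 4 blood markers in the table the sum was at most 3.94 FPKM. The part of these markers, or of the cells they stand for, in the differences of the 10 genes was not tested. Fewer cells of a type and less RNA per cell cannot be told apart in such bulk samples.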

How the data were processed

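Of 4 deposited tables, the table of messenger RNA FPKM at the 8-cell stage was used, with 1 column per library. The authors deposited FPKM values; fastp, HISAT2 2.2.1 and HTSeq are listed, without roles, per the submitters' processing notes. Genome build, annotation and scaling total were not given in the sources used here. No coordinates are printed. Depth, as recovered, was 27.5 to 30.3 M reads (M, 1000000) in each library.

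Entries that reached 1 FPKM in 2 or more libraries (10303 of 22107) were tested on log2(FPKM + 1) with limma 3.58.1 in R 4.3.3 (lmFit, eBayes with a trend of variance on level), SCNT against IVF, two-sided, with Benjamini-Hochberg adjustment. The pseudocount understates ratios of low genes. The procedure was run on simulated data with equal noise in every gene. That noise did not copy the spread between the SCNT replicates, so the simulation does not show how the procedure performs at that spread. Symbols were matched directly or through the synonyms of the RefSeq gene table for goat (assembly ARS1.2). Totals were recovered from genes of at most 400 bases.

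The members and lists were chosen with earlier results of these data known. Named genes were all 10 members, list genes that passed, the most abundant gene of steps without a member, of lactate dehydrogenase and of monocarboxylate export, and the 6 nearest patterns. Genes of the isoenzyme shares are named with them. Some genes, and shares that need them, are not reported here. Alternatives were other pseudocounts, filters and scalings, no variance trend, a replicate block, and leaving out each library.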

Additional observations from a re-analysis of the deposited data

How the results depend on the processing

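Of the 10 genes, 4 passed as reported. The number was 0 with a pseudocount of 5 FPKM and without a filter, and 2 with a filter at 5 FPKM and after quantile normalization. Leaving out single libraries gave between 0 (without SCNT replicate 2) and 10 (without SCNT replicate 1), where only the IVF pair supplied a spread, and 2 without either IVF library. For these changes in number the cause was not tested, apart from the change in the genes or samples tested. HK1 was at 1.41 without SCNT replicate 1 and reversed to −0.29 without SCNT replicate 2, and the other 9 genes stayed above 0 in every alternative run. Median log2 differences of the 10 genes and of all tested genes were 1.75 and 0.39 as deposited, 1.20 and −0.06 after median centring, 1.77 and 0.44 after rescaling to 1000000, and 1.58 and −0.01 after quantile normalization. Leaving out single libraries moved the median of the 10 between 1.14 (without SCNT replicate 2) and 2.72 (without SCNT replicate 1).

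Of the 61 other pathway genes, 0 passed as reported, 1 with a pseudocount of 0.5, 1 after median centring, 1 after quantile normalization and 5 after rescaling, and 0 to 31 when single libraries were left out. Of all genes, 398 passed as reported, 311 higher and 87 lower. The number was 9 with a pseudocount of 5, 0 without a filter (3661 at an unadjusted p under 0.05), 133 with a filter at 5 FPKM, 1327 after rescaling and 46 to 3834 when single libraries were left out. Median centring gave 256 higher and 245 lower, and quantile normalization 121 and 150.

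With the replicate block, 6 of the 10 genes passed, adding ALDOA (limma adjusted p = 0.0447) and PGK1 (0.0265). So did 10 of the 61 other pathway genes, 9 higher and 1 lower, and 1924 of all genes. Whether the numbers pair libraries is not given. The correlation of the replicate differences of IVF and SCNT across genes, which are not independent, was 0.12.

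Shares of recovered reads in place of FPKM, chosen after seeing the data, gave SLC2A1 37.7% in IVF and 48.4% in SCNT (14.6% and 18.6% by FPKM), HK1 74.8% in IVF and ENO1 91.7% in SCNT. Lengths differ between the genes of a step, which moves shares by construction. Shares that add further copies of each enzyme were not run. Genes were matched by symbol or synonym, so whether copies stand in the table under other names is not shown.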
